A study of Mus musculus with 40 samples.

Results

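The first hour of the response of Cpeb4 knockout macrophages to LPS was followed gene by gene. Bone marrow-derived macrophages (BMDMs) from 4 Cpeb4-/- mice were sequenced untreated and after 1 hr of LPS, and each 1 hr library was paired with the untreated library of the same mouse. Genes were kept if their mean level over the 16 libraries of both genotypes at these 2 times was at least log2(5), or 2.32, which left 13108 of the 27179 genes in the table. The genes nearest to this limit were Tnfrsf17 inside, at 2.32, and Ric3 outside, also at 2.32. For each gene the change within the 4 Cpeb4-/- mice was measured first, and then the same change in 4 wildtype (WT) mice was subtracted from it.

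Both genotypes were male mice of a mixed C57BL/6J and 129 background. The Cpeb4-/- mice carried a full knockout in every tissue rather than one limited to myeloid cells, and the WT mice were the controls. Cells of each mouse were left untreated or were given LPS at 10 ng/ml, and poly(A)-selected RNA of each culture was sequenced. The whole series held 40 libraries, 16 of which entered this comparison: 4 Cpeb4-/- and 4 WT mice, each at 0 and 1 hr. The labels place the mice in 2 batches, each with 2 Cpeb4-/- and 2 WT mice, and no cage held mice of both genotypes, so that genotype and cage cannot be told apart.

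LPS, a component of the outer membrane of Gram-negative bacteria, is sensed by macrophages through CD14, MD-2 and the receptor TLR4. The adaptors MyD88 and TRIF then activate NF-κB, the MAP kinases and IRF3, and within the first hour immediate early transcription factors, inflammatory cytokines and chemokines, and the inhibitors that later end the response are transcribed. CPEB4 is an RNA-binding protein that recognizes cytoplasmic polyadenylation elements and sets the poly(A) tail length, stability and translation of the mRNAs that carry them.

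Values throughout are the rlog levels the authors deposited. This is a log2 scale of normalized read counts in which the counts of low genes are shrunk towards their mean, so that a change of 1 is 2-fold and the change of a low gene is understated. A level of one gene cannot be set against that of another, because the scale is not corrected for transcript length. The read depth of the libraries cannot be read from these values. Replicate libraries of a group correlated at 0.998 to 0.999 over the table, and no pair of libraries held identical values.

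The targeted gene did not separate the genotypes. Untreated Cpeb4 levels were 7.42, 7.87, 6.88 and 7.74 in Cpeb4-/- mice 2, 3, 55 and 62, and 8.13, 7.88, 7.03 and 7.81 in WT mice 25, 69, 87 and 88. After 1 hr they were 8.22, 9.35, 9.07 and 9.41 in Cpeb4-/- and 9.35, 9.46, 7.68 and 8.08 in WT. The genotypes overlapped at both times, with differences of −0.24 at 0 hr (two-sided exact permutation test, p = 0.429) and 0.37 at 1 hr (exact p = 0.486). These are counts over the whole gene (chr11:31870104-31935635 on GRCm38.p6), and whether they include reads of transcripts that lack the targeted part could not be seen in gene-level values. The genotypes were taken as labelled.

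Cells of both genotypes carried macrophage markers. All 12 markers of the macrophage list passed the filter, among them Adgre1, Csf1r and Cd68. Their summed level, on the log2 scale, was 19.06 to 19.30 in untreated Cpeb4-/- and 19.36 to 19.64 in untreated WT libraries, without overlap. At 1 hr it was 19.26 to 19.49 against 19.61 to 19.86. Such a sum is weighted towards the most abundant genes of a list, so a shift need not hold for each marker. The neutrophil list went the other way, at 9.52 to 9.78 in Cpeb4-/- and 9.09 to 9.38 in WT untreated and at 9.71 to 9.89 and 9.19 to 9.57 after 1 hr, while 6 of its 13 genes, with Elane, Mpo and Prtn3 among them, stayed under the filter. Only Lck of 11 T and NK cell markers, Cd79b of 9 B cell markers and Alas2 of 6 erythroid markers in the table passed it, and none of 7 mast cell and basophil markers. The 7 of 9 dendritic cell markers that passed include Bst2, which macrophages express, and their sum was 12.44 to 12.94 in Cpeb4-/- and 12.82 to 13.36 in WT untreated. The stromal and endothelial list had 4 of 11 genes past the filter and a sum of 8.39 to 8.48 in Cpeb4-/- and 8.06 to 8.26 in WT. The part of these shifts in the results was not tested, and in bulk RNA fewer cells of a type and less RNA per cell cannot be told apart.

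One of the 4 Cpeb4-/- mice stood apart in its change. Over the 13108 genes, the change of mouse 2 correlated at 0.841 to 0.894 with that of the other Cpeb4-/- mice and at 0.900 to 0.911 with that of the WT mice. For the other 3, the highest correlation with a mouse of their own genotype was 0.916 to 0.919, and the lowest was 0.841 to 0.893. WT mouse 69 correlated at 0.856 to 0.914 with the other WT mice and at 0.887 to 0.915 with the Cpeb4-/- mice. The lowest correlation of all, 0.767, was between Cpeb4-/- mouse 55 and WT mouse 88. The number of genes that rose by at least 1 was 407, 441, 506 and 500 in Cpeb4-/- mice 2, 3, 55 and 62, against 443, 444, 388 and 408 in WT mice 25, 69, 87 and 88.

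The first hour of LPS changed the levels of most genes in Cpeb4-/- BMDMs, the majority of them slightly. At an adjusted p under 0.05 (limma with a term for each mouse), 4078 genes were higher, which is 31.1% of those tested, and 3437 were lower, or 26.2%. The median absolute change was 0.17 with a median SE of 0.05. Rises were larger than falls: 433 genes (3.30%) rose by at least 1, 136 of them by at least 2 and 40 by at least 3, whereas 181 genes (1.38%) fell by at least 1 and 6 by at least 2. The split of the calls depended on the scaling. With quantile normalization 3146 genes were higher and 4908 lower, so that 39.1% of the calls were rises in place of 54.3%, and the median change of all genes moved from 0.02 to −0.05.

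The 10 largest rises included those of the chemokine genes Cxcl1 and Cxcl2 and the cytokine genes Csf2, Tnf and Tnfsf9. Cxcl1, the neutrophil chemokine at chr5:90891245-90893121, went from 8.98, 9.68, 9.03 and 9.01 in the untreated cells of mice 2, 3, 55 and 62 to 14.55, 14.47, 14.49 and 14.37. Every 1 hr library lay above every untreated one, and the untreated cells of mouse 3 were the highest. The change was 5.29 ± 0.11 (SE of the limma model), or 39.2-fold on this scale, with a limma adjusted p of 1.97e-14. SEs of changes come from this model, which pools the spread over both genotypes and moderates it over genes. They are not the spread of the 4 mice alone. Csf2, which encodes the growth factor GM-CSF, was at 3.57, 4.24, 3.57 and 3.52 untreated and at 9.17, 9.02, 8.69 and 8.63 after 1 hr, a rise of 5.15 ± 0.13 (SE). Mouse 3 was again highest among the untreated cells, and it had the smallest rise. Tnf, the cytokine TNF, rose from 12.47, 12.74, 12.50 and 12.45 to 16.74, 16.72, 16.63 and 16.61, a change of 4.13 ± 0.04 (SE). Here too mouse 3 was the highest of the untreated. Among untreated libraries of both genotypes, mouse 3 was highest in 19.6% of the 433 rises of at least 1. Over all genes tested this share was 21.2%.

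The other members of this group rose in every mouse. Cxcl2, another neutrophil chemokine gene, rose by 4.71 with a range of 4.32 to 4.89 over the 4 mice, and Tnfsf9, the ligand of the costimulatory receptor 4-1BB, by 4.64 with a range of 4.37 to 4.82. The small GTPase gene Gem rose by 4.73, the EGF receptor ligand gene Areg by 4.52 and the membrane protein gene Tmem200b by 4.42. Kdm6b, an H3K27 demethylase, rose by 4.14, and Olr1, a receptor of oxidized LDL, by 4.07. In none of these 10 genes did an untreated library reach a 1 hr library.

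**Figure D1:**
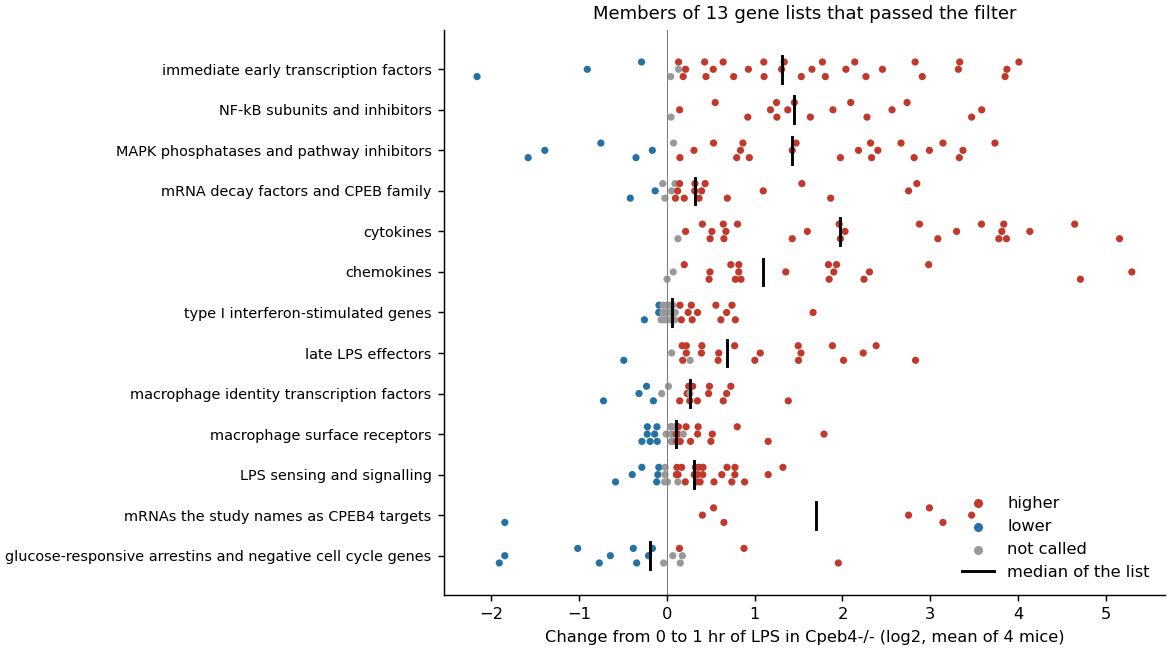
Change from 0 to 1 hr of LPS in Cpeb4-/- BMDMs (x axis, log2, mean of 4 mice) for each member of 13 gene lists that passed the filter (1 point a gene), coloured by whether it was higher, lower or not called at a limma adjusted p under 0.05, with the median of each list as a black line. Cytokines have the highest median, 1.98, and the arrestin and cell cycle list is the one with a median below 0, at −0.19.

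Sequence upstream of the genes that rose was compared with that of all genes tested, as a description. RefSeq (build GRCm38.p6) gave a single promoter window for 8111 of the 13108 genes, and the 250 bases before the gene start were searched on both strands, except for the TATA box, TATAAA, which was searched on the gene's strand. A κB site, the sequence bound by NF-κB, was found in 20.1% of the windows of genes that rose by at least 1 (52 of 259), in 5.26% of those of genes that fell by at least 1 (6 of 114) and in 8.84% of all windows. For the TATA box these shares were 10.0%, 4.39% and 4.20%. The AP-1 site TGANTCA was in 8.49%, 2.63% and 4.32%, and the cAMP response element (CRE) TGACGTCA in 4.25%, 2.63% and 2.82%. The CArG box, the site of serum response factor, was in 1.16%, 0.88% and 1.11%, and the interferon-stimulated response element (ISRE) in 3.86%, 3.51% and 2.93%. A match is a description of the letters and not of binding.

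Windows of 9 genes that rose are shown to place these motifs, which are in capitals, on the strand of the gene from 250 bases before its start to the last base before it. The 3 chemokine genes Cxcl1, Cxcl2 and Cxcl3 hold the same letters there, in which 2 κB matches on opposite strands overlap, and the first of them begins at −71, −97 and −73 relative to the gene start. Rel, an NF-κB subunit gene, has its first match at −92. Gbp5, an interferon-inducible GTPase gene, has a κB match at −77 and an ISRE at −165, both on the strand opposite to the gene. Areg holds a CRE and a TATA box, and Dusp1 a CRE at −143. In Dusp5 there are 2 adjacent CArG boxes and in Zfp36 there is 1.
Cxcl1 (chr5:90890995-90891244, + strand): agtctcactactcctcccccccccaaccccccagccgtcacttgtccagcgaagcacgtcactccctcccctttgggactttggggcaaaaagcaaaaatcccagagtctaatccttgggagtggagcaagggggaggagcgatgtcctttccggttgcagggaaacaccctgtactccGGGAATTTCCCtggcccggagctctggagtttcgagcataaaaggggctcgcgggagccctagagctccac
Cxcl2 (chr5:90903649-90903898, + strand): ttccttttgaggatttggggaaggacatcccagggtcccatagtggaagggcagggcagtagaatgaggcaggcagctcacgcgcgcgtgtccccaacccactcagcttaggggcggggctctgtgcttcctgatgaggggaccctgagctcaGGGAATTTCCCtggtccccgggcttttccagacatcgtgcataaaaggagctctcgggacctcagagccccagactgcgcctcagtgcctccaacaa
Cxcl3 (chr5:90785851-90786100, + strand): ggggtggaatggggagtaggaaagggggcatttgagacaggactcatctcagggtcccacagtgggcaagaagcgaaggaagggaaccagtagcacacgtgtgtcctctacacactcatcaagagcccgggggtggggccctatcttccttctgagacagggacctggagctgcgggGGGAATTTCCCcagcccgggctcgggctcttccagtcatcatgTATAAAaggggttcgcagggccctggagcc
Rel (chr11:23770970-23771219, - strand): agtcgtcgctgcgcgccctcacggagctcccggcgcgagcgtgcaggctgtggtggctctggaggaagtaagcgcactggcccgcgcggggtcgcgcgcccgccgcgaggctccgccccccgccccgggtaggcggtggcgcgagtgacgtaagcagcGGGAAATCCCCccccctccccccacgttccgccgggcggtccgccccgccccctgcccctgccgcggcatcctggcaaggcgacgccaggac
Gbp5 (chr3:142496684-142496933, + strand): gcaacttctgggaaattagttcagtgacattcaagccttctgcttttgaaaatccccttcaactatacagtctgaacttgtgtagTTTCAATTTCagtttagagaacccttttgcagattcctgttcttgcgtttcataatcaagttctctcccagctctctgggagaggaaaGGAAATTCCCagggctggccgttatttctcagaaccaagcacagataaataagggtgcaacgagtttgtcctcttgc
Areg (chr5:91139349-91139598, + strand): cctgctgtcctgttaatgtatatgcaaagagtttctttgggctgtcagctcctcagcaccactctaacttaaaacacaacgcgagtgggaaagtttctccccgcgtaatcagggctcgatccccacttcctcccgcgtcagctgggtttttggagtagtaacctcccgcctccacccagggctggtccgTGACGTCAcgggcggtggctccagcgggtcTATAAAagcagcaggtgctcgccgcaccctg
Dusp1 (chr17:26508473-26508722, - strand): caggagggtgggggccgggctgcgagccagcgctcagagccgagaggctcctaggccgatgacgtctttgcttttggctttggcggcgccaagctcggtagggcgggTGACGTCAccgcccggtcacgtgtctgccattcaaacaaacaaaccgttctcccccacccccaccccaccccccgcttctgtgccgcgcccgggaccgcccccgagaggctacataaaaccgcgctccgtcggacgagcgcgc
Dusp5 (chr19:53528895-53529144, + strand): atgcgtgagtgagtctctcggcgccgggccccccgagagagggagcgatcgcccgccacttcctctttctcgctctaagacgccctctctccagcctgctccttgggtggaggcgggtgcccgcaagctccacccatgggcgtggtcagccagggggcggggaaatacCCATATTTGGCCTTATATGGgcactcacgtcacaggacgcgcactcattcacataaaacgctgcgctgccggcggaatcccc
Zfp36 (chr7:28379229-28379478, - strand): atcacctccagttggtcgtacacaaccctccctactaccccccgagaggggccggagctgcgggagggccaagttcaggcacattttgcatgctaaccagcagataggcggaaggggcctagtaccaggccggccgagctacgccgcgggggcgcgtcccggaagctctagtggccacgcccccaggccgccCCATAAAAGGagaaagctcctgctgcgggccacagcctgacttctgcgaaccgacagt

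Falls were smaller and were led by less studied genes. Vamp1, which encodes a vesicle SNARE protein (chr6:125215581-125222306), went from 7.19, 7.00, 6.99 and 7.18 in mice 2, 3, 55 and 62 to 4.67, 4.79, 4.90 and 4.77, and fell by 2.31 ± 0.09 (SE). The untreated and treated libraries did not overlap. The immediate early gene family member Ier5l fell by 2.16 and the zinc finger gene Zfp273 by 2.10, from levels of 5.58 to 5.92 down to 3.29 to 3.82. The other 7 of the 10 largest falls were gene models whose names give no function. They were Hmga2-ps1, a transcribed pseudogene, the long non-coding RNA genes A530088E08Rik and C920021L13Rik, and the models 4833423F13Rik, Gm19648, Gm19443 and the unnamed Entrez gene 100861939, which fell by 1.95 to 2.19. Reads of a pseudogene can be shared with its parent, so that its level is uncertain.

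Zinc finger genes were frequent among the falls, a group chosen after the values were seen. Of 352 genes tested whose symbol is Zfp, Zscan or Zkscan with a number, 235 were lower and 50 higher, with a median change of −0.39 beside 0.02 over all genes. They made up 51 of the 181 genes that fell by at least 1, or 28.2%, and 2.69% of all genes tested. Zfp36, which is not a transcription factor but an mRNA decay factor, had the largest rise of the group, 2.75. In WT the median of the same genes was −0.45.

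Genes with large changes had short genomic spans. Among protein-coding genes with a RefSeq span, the median was 14.6 kb in the 377 that rose by at least 1 and 10.6 kb in the 130 that fell by at least 1, beside 22.9 kb over all 12013. None of the 130 spanned more than 100 kb, compared with 18 (4.77%) of the 377 and 11.8% of all. Genes that were called higher by less than 1 were long, with a median of 42.2 kb, and 23.8% of them exceeded 100 kb, while those called lower by less than 1 had a median of 14.4 kb. In WT the medians were 14.2 kb and 13.2 kb for rises and falls of at least 1. The part of gene length in the calls was not tested.

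**Figure D2:**
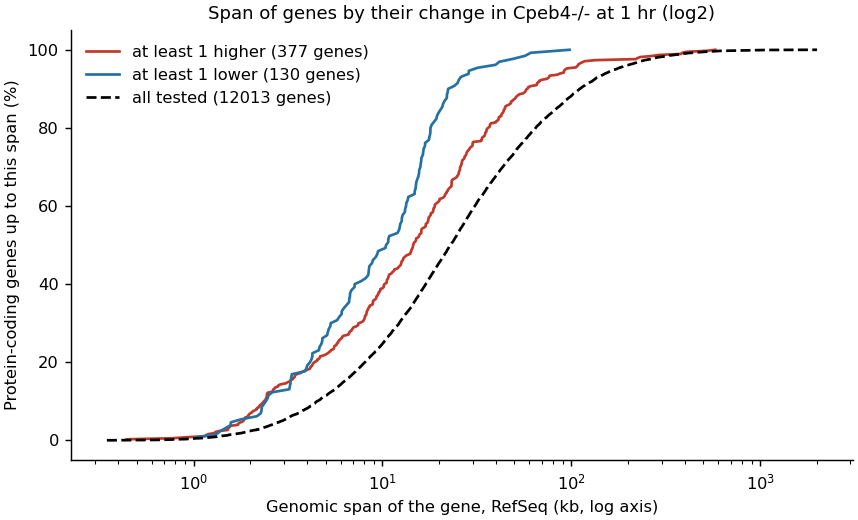
Share of protein-coding genes (y axis, %) with a genomic span up to the length on the x axis (kb, log axis), for genes that rose by at least 1 on the log2 scale in Cpeb4-/- BMDMs at 1 hr, genes that fell by at least 1, and all genes tested. Both curves of changed genes lie to the left of that of all genes, with medians of 14.6 and 10.6 kb against 22.9 kb.

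Immediate early genes rose as a group. The list holds mainly transcription factors, with some other genes such as Arc and Btg2. Of 37 on the list, 33 passed the filter, 28 of them were higher and 19 rose by at least 1, with a median of 1.31. Over all genes tested, the background for this and the following lists, 31.1% were higher, 26.2% lower and 3.30% rose by at least 1. Egr1, a zinc finger factor induced by MAP kinase signalling, went from levels of 7.72 to 7.95 in the 4 untreated libraries up to 11.60 to 12.01, a rise of 4.01 ± 0.05 (SE). All 4 mice gave nearly the same rise, between 3.85 and 4.09. Maff, a small MAF protein, rose by 3.87 and Csrnp1 by 3.85. Nr4a1, an orphan nuclear receptor, was taken up after its values were seen, and rose by 3.32. Fos, the founding member of the AP-1 family, was only 0.45 above its untreated level at 1 hr, and in mouse 3 the gap was from 11.05 to 11.20. Atf3, a stress-induced repressor, rose by 0.21 with the deposited scaling and turned to −0.11 with quantile normalization. The 3 members that fell were Ier5l, Arc, by 0.90, and Klf4, by 0.29. Klf10 and Klf2, at 0.04 and 0.13, were not called.

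Among NF-κB subunits and inhibitors, 16 of 17 were higher and 13 rose by at least 1, with a median of 1.45. Nfkbiz, a nuclear cofactor of NF-κB, rose from 11.88, 11.99, 11.91 and 11.91 to 15.45, 15.59, 15.45 and 15.56, a change of 3.59 ± 0.03 (SE). Its rise lay between 3.54 and 3.65 in all 4 mice. Tnfaip3, which encodes the ubiquitin-editing inhibitor A20, rose by 3.47 and Rel by 2.74. Nfkbia, the gene of IκBα and the classical feedback target, went from 13.43 to 13.53 up to 15.93 to 16.22. Of the subunits, Rel thus rose most, followed by Relb at 1.25, Nfkb2 at 1.18, Rela at 0.92 and Nfkb1 at 0.55. Tnip2, at 0.05, was the member that was not called.

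The list of MAP kinase phosphatases and inhibitors of MAP kinase and cytokine signalling moved in both directions. It also holds genes that are not inhibitors of MAP kinases, among them Gadd45a, Gadd45b, Gadd45g, Pim1 and Pim3. Of its 27 members that passed the filter, 21 were higher and 5 were lower, with 14 rises of at least 1 and a median of 1.43. Dusp5, a phosphatase of ERK, rose by 3.74, Dusp8 by 3.37 and Dusp2 by 3.33. Dusp1, which acts mainly on p38 and JNK, rose from 10.73 to 10.86 in the untreated cells up to 13.65 to 13.92. In contrast, Rgs2, a regulator of G protein signalling, fell from 12.04, 12.06, 12.17 and 12.12 to 10.55, 10.57, 10.53 and 10.43, by 1.58 ± 0.04 (SE). The ERK phosphatase gene Dusp6 fell by 1.39, with every 1 hr library below every untreated one. Gadd45g, Dusp7 and Spry2 fell by 0.75, 0.35 and 0.16, and Socs2, at 0.08, was not called.

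mRNA decay factors and the CPEB family followed. Of 21 members 15 were higher and 2 lower, with a median of 0.32. The rises of at least 1 were those of Zc3h12c, at 2.85, Zfp36, the gene of tristetraprolin, at 2.75, Zc3h12a, the gene of the RNase Regnase-1, at 1.87, Cpeb4, at 1.54, and Btg1, at 1.10. Zfp36 went from 13.15, 13.15, 13.24 and 13.21 to 16.06, 15.89, 15.83 and 15.98 in the 4 mice. Cpeb2 rose by 0.40 and Cpeb3 by 0.37, while Cpeb1, at 0.09, was not called. The rise of Cpeb4 itself was 0.81, 1.49, 2.19 and 1.67 in mice 2, 3, 55 and 62, against 1.22, 1.58, 0.66 and 0.27 in WT, and the genotypes overlapped (difference 0.61, exact permutation p = 0.171). Zc3h12d and Cnot8 fell by 0.41 and 0.13, and Zfp36l2, Khsrp and Tob1, at −0.02, 0.06 and −0.05, were not called. With quantile normalization 11 of the 21 were higher and 5 lower.

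Of 25 cytokines 24 were higher, 16 of them by at least 1, and the median of 1.98 was the highest of the 13 lists. After Csf2, Tnfsf9 and Tnf came Ifnb1, the gene of interferon β, which went from 3.84, 3.77, 3.64 and 3.78 to 7.92, 7.34, 7.88 and 7.36. The 1 hr cells of mice 3 and 62, which are the 2 of batch 1, were lower than those of mice 2 and 55. Its rise of 3.87 ± 0.17 (SE) was that of a low gene, which this scale shrinks. Il1b rose by 3.30 and Il12b by 3.58, and Il6, a slower gene, by 1.96 ± 0.05. The anti-inflammatory cytokine gene Il10 went from 9.03, 8.77, 8.97 and 8.85 to 11.16, 10.61, 10.86 and 11.10. Il18, at 0.13, was not called.

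Among chemokines, 18 of the 20 that passed were higher and 10 rose by at least 1, with a median of 1.10. Cxcl3 rose by 2.98 with a range of 2.95 to 3.01 over the mice. The CC chemokine genes Ccl4 and Ccl3 rose by 2.31 and 2.25, and the monocyte chemokine genes Ccl2, Ccl12 and Ccl7 by 1.93, 1.90 and 1.36. Ccl5, at 0.82, changed less. Ccl6 and Ccl8, at 0.00 and 0.07, were not called.

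Interferon-stimulated genes had hardly moved by 1 hr. Of 32, 12 were higher, 3 lower and 17 not called, and the share that was higher lies near the 31.1% of all genes. Gbp5, at 1.67, was the one rise of at least 1. With quantile normalization 9 were higher and 16 lower, and the median turned from 0.06 to −0.08, so that no direction can be given for the list. Isg15, a ubiquitin-like antiviral protein gene, went from 11.24, 11.11, 11.40 and 11.13 to 11.88, 11.75, 11.84 and 11.64. Oasl1 rose by 0.78, Ifih1, the gene of the RNA sensor MDA5, by 0.74 and Rsad2 by 0.35. Stat2 fell by 0.25, and Tor3a and Igtp both by 0.09.

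Genes known as later effectors of macrophages varied more. Of 22 that passed the filter, 19 were higher, 10 of them by at least 1, with a median of 0.68. Ptgs2, which encodes the prostaglandin synthase COX-2, rose by 2.83, Acod1, the itaconate-producing enzyme gene, by 2.38 and the costimulatory receptor gene Cd40 by 2.24. Nos2, the inducible nitric oxide synthase gene, was at 8.12, 8.12, 8.12 and 8.14 untreated and at 8.20, 8.22, 8.19 and 8.13 after 1 hr. That gap of 0.06 ± 0.04 (SE) was not called, and neither was that of Slpi, 0.27. The arginase gene Arg1 was lower by 0.49.

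Receptors and signalling components of the LPS pathway moved little. Tlr4 itself fell from 10.47, 10.62, 10.50 and 10.48 to 10.01, 10.34, 10.32 and 10.26, by 0.28 ± 0.05 (SE). Its coreceptor gene Cd14 rose by 1.15 and the kinase gene Irak2 by 1.32, and these were the rises of at least 1 among 33 sensing and signalling genes, of which 22 were higher, 6 lower and 5 not called. With quantile normalization the counts became 19 and 11. Tirap and Tab1 fell by 0.58 and 0.39, and Mapk14, Irak1 and Ikbkg, at −0.02, −0.02 and 0.01, were not called. Of 32 surface receptors 14 were higher and 7 lower, with Tlr2 the leading rise at 1.79, where 31.1% and 26.2% of all genes were higher and lower, so that these shares lie near the background. Quantile normalization turned the counts to 8 and 16. Adgre1, Cd68 and Itgam, at 0.05 to 0.10, were not called.

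Factors of macrophage identity showed a rise of Cebpb and a fall of Cebpa. Cebpa, a myeloid lineage factor gene, went from 11.30, 11.34, 11.38 and 11.45 to 10.67, 10.63, 10.65 and 10.63, and fell by 0.72 ± 0.04 (SE). Cebpb, which is inducible, rose by 1.38, Bcl6 by 0.73 and Mef2a by 0.68. Of 19 factors 12 were higher, 4 lower and 3 not called (Tcf4, Tfeb and Bach2). Quantile normalization changed this to 9 higher and 7 lower.

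A set of 8 mRNAs among those that the study names as bound by CPEB4 was followed one by one. The set is not complete: Cxcl1, Cxcl2, Ccl2 and Ptgs2, described with the other lists, are named there as well. Since the study chose them on its own samples, their direction is no independent evidence. Of the 8 mRNAs, 7 were higher and Txnip was lower at 1 hr, where 31.1% and 26.2% of all genes were higher and lower. Tnfaip3 rose by 3.47, Socs3, a feedback inhibitor of STAT3 signalling, by 3.14, Dusp1 by 2.99 and Zfp36 by 2.75. Il1rn, the gene of the IL-1 receptor antagonist, rose by 0.65, Socs1 by 0.53 and Vegfa by 0.41. Txnip, an inhibitor of glucose uptake, fell from 13.31, 13.15, 13.25 and 13.30 to 11.40, 11.41, 11.48 and 11.36 (chr3:96557957-96561857). Its related arrestin gene Arrdc3 fell by 1.91 and Sesn1 by 1.01, and these 3 were the falls of at least 1 in a list of 16 glucose-responsive arrestins and negative cell cycle genes, of which 9 were lower. Cdkn1a, which encodes the inhibitor p21, rose by 1.95 and Ccng2 by 0.88.

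In none of these 8 mRNAs did the change separate the genotypes. Over all genes tested, the 4 Cpeb4-/- changes lay above the 4 WT changes in 2.52% and below them in 2.75%. With shares this low, none of 8 lies near the background and says little about these mRNAs. The change of Ptgs2, which is outside the set and was named for its small p, was larger in every Cpeb4-/- mouse than in every WT mouse (limma adjusted p = 0.111). Tnfaip3 rose by 3.42, 3.42, 3.48 and 3.57 in Cpeb4-/- mice 2, 3, 55 and 62, and by 3.62, 3.59, 3.33 and 3.35 in WT mice 25, 69, 87 and 88, and the difference was smaller than its SE of 0.07. The largest difference among the 8 was in Vegfa, at −0.26 ± 0.10 (SE), with a limma adjusted p of 0.238. For Dusp1 it was 0.24, with an two-sided exact permutation p of 0.0571, where the smallest value possible for 4 against 4 mice is 0.0286.

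Genes of 4 microRNAs were also taken up after their values were seen. Their entries count reads over the microRNA gene in poly(A) RNA, which is precursor transcript and not the mature microRNA, so the mature sequences are shown only to identify the products, with the seed (bases 2 to 8) in capitals. The 3p products of Mir221 and Mir222, which lie close to each other on chromosome X, share a seed.
mmu-miR-155-5p: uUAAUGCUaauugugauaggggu
mmu-miR-146a-5p: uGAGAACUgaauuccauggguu
mmu-miR-221-3p: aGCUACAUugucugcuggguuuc
mmu-miR-222-3p: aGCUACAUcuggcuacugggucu

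Mir155, from the gene of the microRNA induced by Toll-like receptors, went from 3.35, 3.29, 3.23 and 3.19 in mice 2, 3, 55 and 62 to 5.54, 6.24, 6.13 and 6.14, a rise of 2.75 ± 0.18 (SE) that was smallest in mouse 2. Mir146, a microRNA gene that answers to NF-κB, rose from 2.45 to 2.80 up to 4.02 to 4.32, Mir221 by 2.25 and Mir222 by 1.89. In WT, Mir146 rose by 0.89 and its changes lay below all 4 of Cpeb4-/-, with a difference of 0.70 ± 0.18 (SE) that did not pass the adjustment (limma adjusted p = 0.238, exact permutation p = 0.0286). Both Mir155 and Mir146 lie low on the rlog scale, where changes are shrunk.

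Genes that rose in the first hour peaked at different times. Among the 433 genes that rose by at least 1, the highest of the 5 Cpeb4-/- group means came at 1 hr in 201 (46.4%). For 133 it was the 3 hr mean, for 89 the 6 hr mean and for 10 the 9 hr mean. These genes were chosen by their 1 hr level, which favours that time. Egr1, at 11.84 ± 0.20 (SD, n = 4) at 1 hr, was at 7.39 ± 0.10 at 3 hr, below its untreated mean of 7.84, and then at 8.89 ± 0.19 at 6 hr and 8.21 ± 0.16 at 9 hr, above it. Cxcl1 declined from 14.47 through 13.53 and 11.34 to 10.18 at the 3 later times, and Tnf from 16.67 to 13.84 at 9 hr. Il6 climbed from 9.70 at 1 hr to 12.18 and 12.95 at 3 and 6 hr, and Nos2 from 8.18 to 11.98 and 13.69. Isg15, which had moved little at 1 hr, stood at 13.90 at 3 hr and 14.96 at 6 hr. Txnip recovered from 11.41 at 1 hr to 12.72 at 9 hr.

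**Figure D3:**
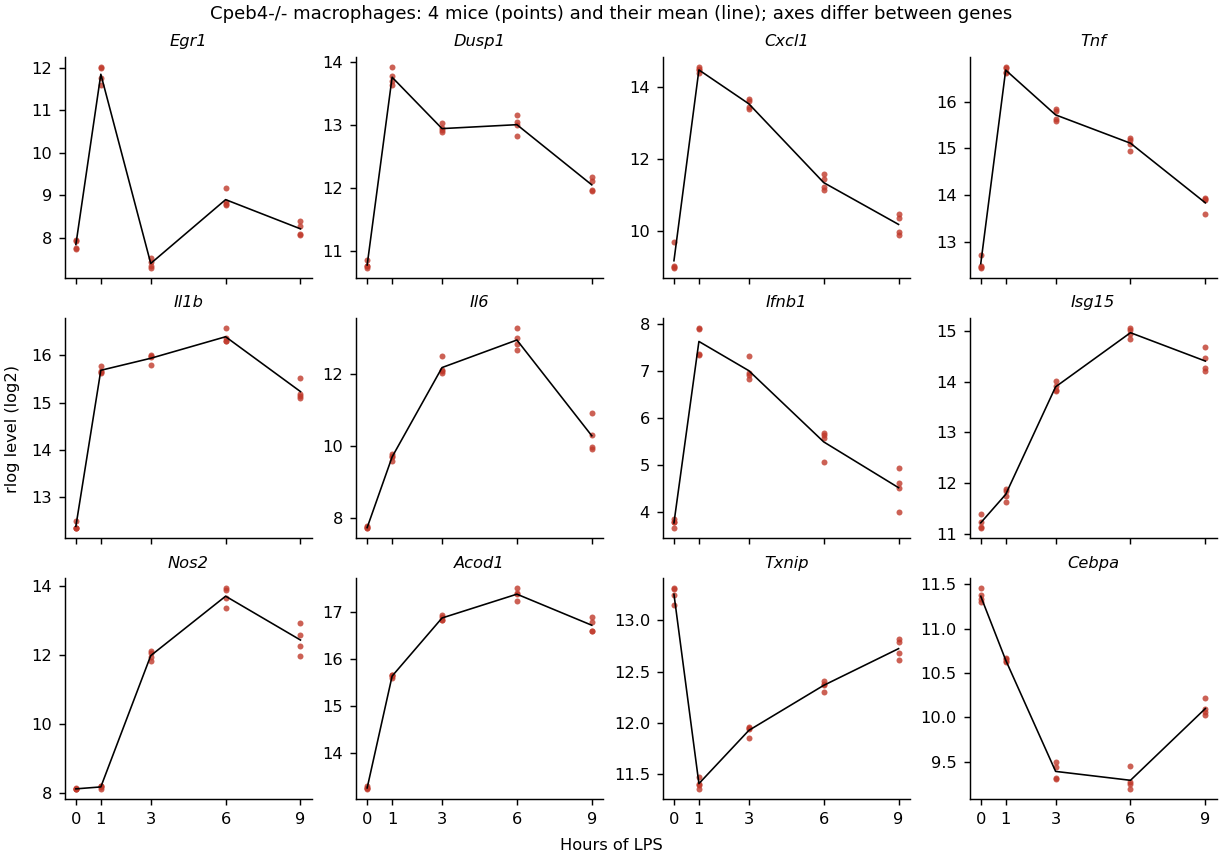
Level of 12 genes (y axis, rlog, log2) in Cpeb4-/- BMDMs against hours of LPS (x axis), with 1 point for each of 4 mice and a line through their means; the y axis differs between panels. Egr1 and Cxcl1 are highest at 1 hr, Il6, Nos2 and Isg15 at 6 hr, and Txnip is lowest at 1 hr.

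The change in WT was nearly the same as that in Cpeb4-/- over the genome. Across the 13108 genes the 2 mean changes correlated at r = 0.950 with a slope of 0.97, where genes are not independent replicates. In WT 3859 genes were higher and 3245 lower, and 412 and 197 of these changed by at least 1. Of the 433 genes that rose by at least 1 in Cpeb4-/-, 432 were also called higher in WT, and of the 181 that fell by at least 1, 180 were also called lower. The 2 exceptions were the gene models 4930563E22Rik and the unnamed Entrez gene 100861837, where the WT change of −0.55 and 0.51 missed the threshold (limma adjusted p = 0.0582 and 0.0545).

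**Figure D4:**
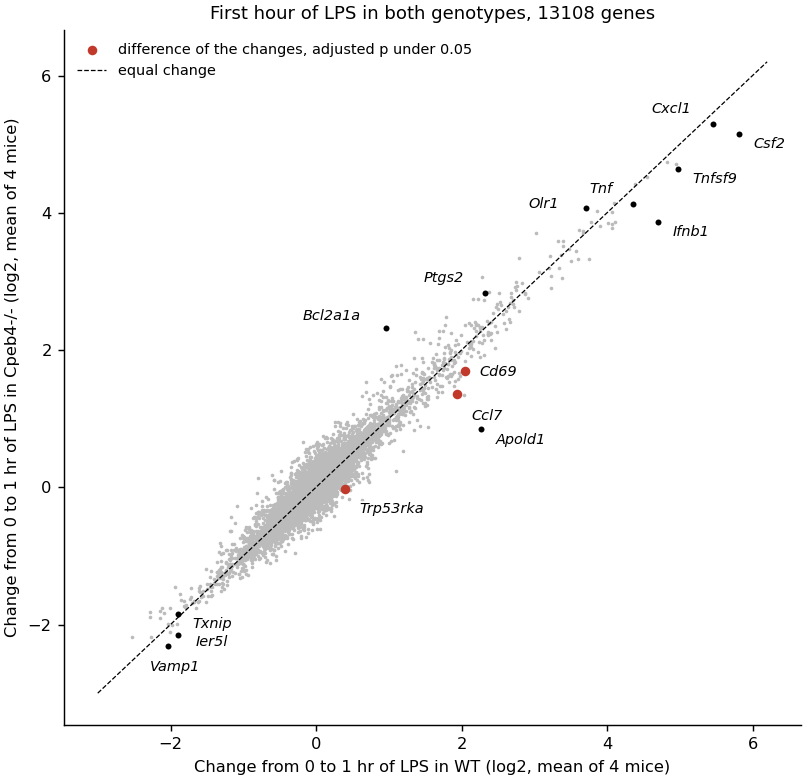
Change from 0 to 1 hr of LPS in Cpeb4-/- BMDMs (y axis) against that in WT BMDMs (x axis), both log2 and means of 4 mice, for 13108 genes (grey points, with some named genes in black); the dashed line marks equal change and red points are genes whose difference had a limma adjusted p under 0.05. Points follow the line with r = 0.950, and the 3 red points, Ccl7, Cd69 and Trp53rka, lie below it.

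For the difference between the genotypes in the change 3 genes were called, all with a less positive change in Cpeb4-/-. At an adjusted p under 0.05 they are 0.0229% of the genes tested, and no gene passed in the other direction. Without adjustment 2416 genes (18.4%) had a p under 0.05. Ccl7, which encodes a monocyte chemokine (chr11:82045712-82047525), rose by 1.53, 1.30, 1.36 and 1.24 in Cpeb4-/- mice 2, 3, 55 and 62, and by 2.09, 1.73, 1.96 and 1.96 in WT mice 25, 69, 87 and 88. No Cpeb4-/- mouse reached the lowest WT mouse, and the difference was −0.58 ± 0.08 (SE, limma adjusted p = 0.0282), at −0.76 in batch 1 and −0.40 in batch 2. The levels of Ccl7 were similar untreated, at 9.83 to 10.11 and 9.83 to 10.18. Its neighbour Ccl2 differed by −0.37 (limma adjusted p = 0.175).

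Cd69, an activation marker and C-type lectin gene (chr6:129267324-129275375), rose by 1.65 to 1.74 in Cpeb4-/- and by 2.00 to 2.14 in WT, with a difference of −0.35 ± 0.05 (SE, limma adjusted p = 0.0282) that was −0.34 and −0.36 in the 2 batches. Its untreated levels were also lower in Cpeb4-/-, at 9.14, 9.13, 9.20 and 9.09 against 9.31, 9.28, 9.41 and 9.35. Trp53rka, which encodes a protein kinase of the KEOPS complex, was the third (chr2:165490112-165493314). It changed by −0.08, −0.04, 0.10 and −0.08 in Cpeb4-/- and by 0.45, 0.47, 0.35 and 0.32 in WT, a difference of −0.43 ± 0.06 (SE, limma adjusted p = 0.0433). Untreated, it was already at 8.64 to 8.76 in Cpeb4-/- and at 8.99 to 9.16 in WT. Reads of this gene may be shared with its close copy Trp53rkb, for which the difference was 0.03.

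These calls rested on the mice included. Without Cpeb4-/- mouse 2 the number of genes called was 1415, with 752 higher and 663 lower, and without WT mouse 69 it was 23. It was 5 without WT mouse 88 and 4 without Cpeb4-/- mouse 55. Leaving out Cpeb4-/- mouse 3 or 62, or WT mouse 25 or 87, left none. The 3 genes were among those called in each of the 4 cases with calls. Over all 17 alternatives, which include these, their differences kept their sign, between −0.65 and −0.53 for Ccl7, −0.37 and −0.32 for Cd69 and −0.47 and −0.39 for Trp53rka. Without the mouse term no gene was called and 232 had an unadjusted p under 0.05.

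In the other direction the smallest p belonged to Ptgs2, Ttpal and Dusp4, none of which passed. Ptgs2 was at 10.77 to 10.89 in untreated Cpeb4-/- and 10.76 to 10.77 in untreated WT, and rose by 2.76, 2.90, 2.80 and 2.87 against 2.35, 2.61, 2.07 and 2.28. The mice did not overlap, and the difference was 0.50 ± 0.08 (SE, limma adjusted p = 0.111). Dusp4, an ERK phosphatase gene, differed by 0.50 (adjusted p = 0.129). Ttpal, which encodes a lipid transfer protein, differed by 0.35 (limma adjusted p = 0.120). Its untreated levels were 9.60 to 9.71 in Cpeb4-/- and 9.94 to 10.09 in WT. It lies 1871 kb from Trp53rka on the same chromosome, and a link between these genes was not tested.

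**Figure D5:**
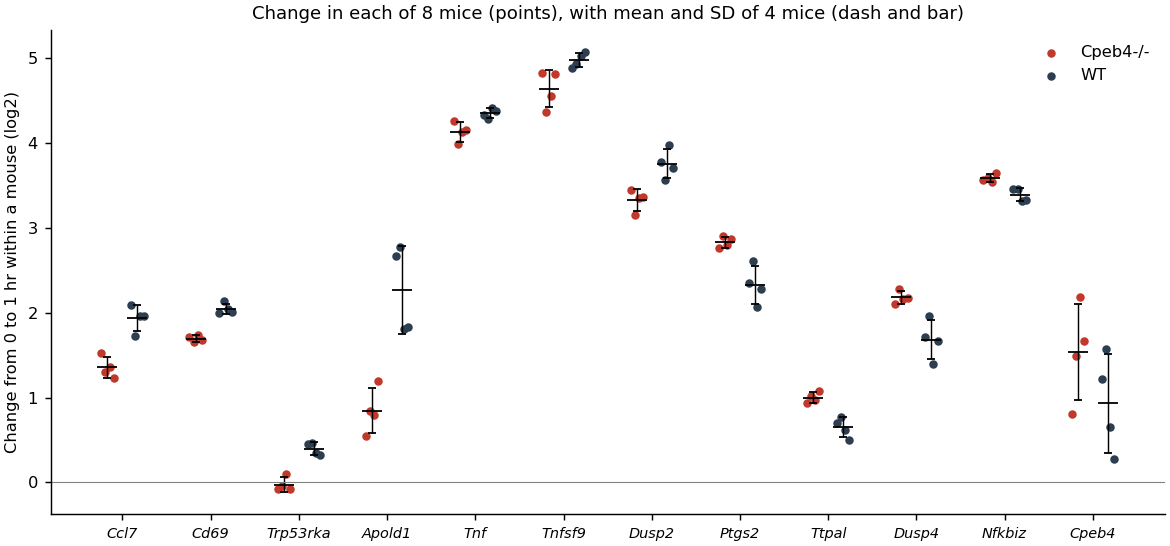
Change from 0 to 1 hr of LPS within each mouse (y axis, log2) for 12 genes (x axis), with 1 point for each of 4 Cpeb4-/- mice (red) and 4 WT mice (dark) and the mean and SD of the 4 as a dash and bars. Ccl7, Cd69, Trp53rka and Apold1 are lower in every Cpeb4-/- mouse than in every WT mouse, and Cpeb4 overlaps.

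Complete separation of the mice was found in all in 330 genes with Cpeb4-/- above WT (2.52%) and in 361 with Cpeb4-/- below (2.75%). Immediate early genes had 4 of 33 below, Maff, Srf, Id1 and Id2, and none above. Id1, an inhibitor of helix-loop-helix factors, rose by 0.53 in Cpeb4-/- and by 1.20 in WT, and its untreated levels lay between 5.43 and 5.54 in Cpeb4-/- and between 5.26 and 5.79 in WT (difference −0.67 ± 0.13, limma adjusted p = 0.142). Among cytokines Tnf and Tnfsf9 were below and Il12b above. Tnf was 16.61 to 16.74 at 1 hr in Cpeb4-/- and 16.81 to 16.90 in WT, and the difference in its change was −0.22 ± 0.06 (SE, limma adjusted p = 0.238). Of NF-κB genes Nfkbie, Nfkbiz and Tnip3 were above and Bcl3 below. In the list of MAP kinase phosphatases and inhibitors Dusp4, Dusp8 and Dusp16 were above and Dusp2 below. Chemokines had Ccl5 and Ccl7 below.

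Taken per mouse, the median change of a list overlapped between genotypes in most lists. It did not for chemokines, at 1.08 to 1.24 in the Cpeb4-/- mice and 1.35 to 1.65 in the WT mice. Nor did it for the list of MAP kinase phosphatases and inhibitors, at 1.34 to 1.46 and 1.16 to 1.29, or for NF-κB genes, at 1.41 to 1.50 and 1.51 to 1.57. Over all genes tested it was 0.01 to 0.03 in both. The median of the gene-wise differences was −0.16 for chemokines, 0.01 for the MAP kinase list, 0.03 for NF-κB genes and 0.01 for all genes. For NF-κB genes the sign thus differed between the 2 measures. A median per mouse rests on the genes in the middle of a list, such as Dusp16 for the MAP kinase list in Cpeb4-/- mice 2 and 62. It does not show that a whole list separated. In the MAP kinase list 3 of 27 genes separated above WT and 1 below, and in the NF-κB list 3 of 17 and 1.

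The largest difference of all, in Apold1, did not pass. Apold1, which encodes an apolipoprotein L domain protein, was at 4.66, 4.53, 4.56 and 4.23 in untreated Cpeb4-/- and at 3.92, 3.64, 4.32 and 4.22 in untreated WT, and reached 5.21, 5.37, 5.36 and 5.42 against 6.59, 6.41, 6.13 and 6.06. At 1 hr all Cpeb4-/- libraries were below all WT libraries. The difference in change was −1.42 ± 0.22 (SE, limma adjusted p = 0.0702). In all, 5 genes were called in opposite directions in the 2 genotypes, all with changes of at most 0.25 in size and none with a difference that passed (limma adjusted p = 0.238 in each). Bola2 and Pla2g4b were lower in Cpeb4-/- and higher in WT, and Kcnj2, Sh2b3 and Tsc1 the reverse, although Kcnj2 was lower in both with quantile normalization.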

How the data were processed

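Poly(A) RNA of BMDMs was sequenced, and the authors deposited 1 table of rlog values on the log2 scale, which DESeq2 makes from gene counts scaled for library size. The submitters' processing notes name STAR 2.3.0e, featureCounts, DESeq2 and the mm10 build. Read counts and depths were not used here, so that precision was taken from the spread between mice. In limma this spread was pooled over both genotypes and moderated over genes. SEs of changes and limma p-values rest on it, in cultures of 4 mice per genotype.

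The 16 libraries were taken by their labels, and genes whose rlog averaged log2(5) or more were analysed, 13108 of 27179 rows. A linear model with a term for each mouse and an LPS change for each genotype was computed in limma 3.58.1 (R 4.3.3, statmod 1.5.0), with trended empirical Bayes variances and Benjamini-Hochberg adjustment over all genes tested at 0.05. Libraries of the same mouse deviated together (r = 0.26 to 0.77 over the 8 mice). For Cpeb4-/- mouse 55, at 0.26, the 1 hr library of another Cpeb4-/- mouse correlated better with its untreated library. The labels give both libraries of a pair the same animal number. Single values were compared by two-sided exact permutation tests. On simulated data of 13108 genes, changes of 0.5 were put in 100 genes and changes of 1 in another 100. For the Cpeb4-/- change 87% and 98% were recovered, with 18 false calls among the unchanged genes. For the difference these were 68% and 92%, with 9 false calls. The simulated noise was independent between genes and equal in spread over the mice. In the data Cpeb4-/- mouse 2 stood apart, so these rates need not hold there.

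Genes were named by rule: the 10 largest rises and falls with the same sign in all 4 mice, the genes whose difference passed or had the smallest p, up to 3 rises, falls and uncalled members of each of 13 lists, and Cpeb4 with 8 mRNAs the study names as bound by CPEB4. Other genes, among them Fos, Atf3, Nr4a1, Ifnb1, Nfkbia, Il1b, Il6, Il10, Apold1, Id1, the microRNA genes and further list members, were named after their values were seen. The genes, the 13 lists and the 8 marker lists were chosen with earlier results of these data known. Gene positions and sequences came from RefSeq (GRCm38.p6), matched by Entrez ID for 25275 rows. Alternatives were other treatments of the mouse term, filters, variance models, scalings, a batch term, the 8 Cpeb4-/- libraries alone, and each mouse left out in turn. Libraries of 3, 6 and 9 hr entered only as Cpeb4-/- levels.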

Additional observations from a re-analysis of the deposited data

Results flagged for a closer look

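Differences between the genotypes in the change over the first hour passed the limma test in Ccl7 (−0.58), Cd69 (−0.35) and Trp53rka (−0.43). All 3 were less positive in every Cpeb4-/- mouse than in every WT mouse.

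In groups of 4 mice, 1 mouse was set far from the other 3 by Dixon's criterion in 11 of the 304 groups checked (3.62%), where chance marks about 5%. Cpeb4-/- mouse 2 held 5 of them. Its change was 0.0082 for Itgam, where the other 3 were at 0.12 to 0.13, and 2.19 for Mir155, beside 2.90 to 2.96. It was 0.42 for Atf3, beside 0.14 to 0.16, 0.18 for Cpeb3, beside 0.41 to 0.45, and 1.34 for Dusp16, beside 1.45 to 1.46. Cpeb4-/- mouse 3 had the change of 4.32 in Cxcl2, beside 4.80 to 4.89, and its untreated level was the highest. Cpeb4-/- mouse 55 had a change of 0.32 in Rsad2, beside 0.36 in the others.

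Among WT mice, mouse 69 stood apart in C920021L13Rik, at −1.99 beside −1.42 to −1.36, and in Atf3, at 0.30 beside 0.71 to 0.75. WT mouse 88 stood apart in Maff, at 4.19 beside 4.07 to 4.08, and in Bcl2a1a, at 2.92 beside 0.07 to 0.43. Bcl2a1a has the close copies Bcl2a1b and Bcl2a1d, between which reads can be split, so that its level is uncertain.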

How the results depend on the processing

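The number of genes called for a difference between genotypes in their change moved most. It was 3 as reported, 0 without the replicate block (the mouse term), 6 with the block as a random effect, 0 with an untrended variance and 0 with a batch by LPS term, and it ran from 0 to 1415 with 1 mouse left out. With no filter on low values it was again 3, but none of these genes was among the 3 reported. Ccl7 was called under 8 of 17 alternatives, and Cd69 and Trp53rka under 9. With the block as a random effect, Ccl7 was not among the 6 genes called. Apold1 and Ptgs2, which did not pass as reported, were called under 5 and 3 of the 17. The cause was not tested.

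The counts of Cpeb4-/- changes stayed within 1.5 times of those reported. Without the replicate block, 2764 genes were higher and 2463 lower, and with 1 mouse left out these were 3522 to 4184 and 2885 to 3486. The directions of 2 named genes turned with quantile normalization, to −0.085 for Kcnj2 and −0.11 for Atf3. Of 2720 values of the change in 152 named genes over the alternatives, 2625 kept direction and side of the threshold. The rlog scale shrinks low genes, depth could not be set beside any value, and the level of Cpeb4 did not separate the genotypes: the difference ran from −0.47 to −0.04 untreated and from 0.05 to 0.64 at 1 hr with 1 mouse left out.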
